A study of Rattus norvegicus with 16 samples.

Results

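The diaphragm of ventilated, operated and electrically stimulated rats (E-V12) was compared with that of non-ventilated rats (CON) across all transcript clusters of the array. Male Wistar rats of 14 to 16 weeks were studied, with 1 Clariom S array per rat and 4 rats per group, so that 8 of the 16 arrays of the study entered E-V12/CON. The CON rats received anaesthesia only, and their diaphragm was taken directly afterwards. The E-V12 rats underwent tracheostomy and a midline laparotomy with placement of electrodes in the diaphragm, and were then ventilated for 12 h under anaesthesia with supplemental oxygen and continuous stimulation, during which contraction of the diaphragm was monitored. The remaining groups were rats with tracheostomy and 12 h of ventilation (V12) and sham-operated rats (S-V12), which had the laparotomy, the electrodes and the oxygen but no stimulation. Anaesthesia was induced with isoflurane and maintained with urethane, and atropine was given. In E-V12/CON the effects of ventilation, tracheostomy, long anaesthesia, laparotomy, oxygen, stimulation and elapsed time cannot be told apart. Tissue around the electrodes was removed when the specimen was prepared, and each specimen was bulk tissue, so that fewer cells of a type and less RNA per cell cannot be told apart either.

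The diaphragm is the main muscle of inspiration and normally contracts throughout life. Under controlled ventilation it rests, and within hours the fibres are known to begin to lose protein through the ubiquitin-proteasome system and autophagy, with FOXO transcription factors and the muscle ubiquitin ligases atrogin-1 (Fbxo32) and MuRF1 (Trim63) among the best described mediators. Contraction in turn is known to maintain PGC-1α (Ppargc1a), the coactivator of mitochondrial biogenesis, and the glucose transporter GLUT4 (Slc2a4). Surgery and anaesthesia evoke a systemic stress response with glucocorticoids and interleukin-6, whose target genes are also expressed in muscle.

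Signals are given as log2 values for the CON or E-V12 replicates 1 to 4 in that order, group levels as mean ± SD (n = 4), and changes as the log2 difference E-V12 minus CON, whose SE comes from 1 limma model of all clusters. The words rose and fell are kept for genes with a limma adjusted p under 0.05, and where that call ended under another setting or without an array, the adjusted p found there stands in brackets. Array medians of the 8 arrays lay between 5.58 and 5.65, and 33.0% to 40.9% of the clusters of an array lay above its highest background probe set. Where all 4 arrays of a group lay below that level, the change is given as a lower bound against the background ("at least"), because such signals carry no level of their own. The scale also had a ceiling: 9 to 16 clusters per array stood at the highest signal of the array, and 24 genes had means over 19 in both groups, where a difference could not be resolved. Of the 13 measured markers of muscle fibres, 0 lay below background on all arrays of a group and 0 were called higher or lower. The log2 of their summed signal was 22.9 to 23.2 in CON and 23.0 to 23.1 in E-V12. Such a sum needs several of them near the ceiling, so the 0 calls do not show that these genes were unchanged. The added poly-A control RNAs read 6.70 to 7.65 in CON and 5.83 to 6.26 in E-V12, and their part in the results was not tested. CON replicate 1 stood apart from the other CON arrays on the second principal component of the 8 arrays (11.2% of the variance), and results that depend on it are given with and without it.

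Of 23188 transcript clusters, 2524 (10.9%) were higher and 2924 (12.6%) were lower in E-V12 than in CON at an adjusted p under 0.05. With 1 cluster per gene symbol, 1817 of 15037 (12.1%) were higher and 2146 (14.3%) lower. The counts of list members in E-V12/CON given below stand beside these shares of all genes. At the thresholds of the study's methods, an unadjusted p under 0.05 with a change of 2-fold or more, 1333 clusters (5.75%) were higher and 1453 (6.27%) lower. The CON and E-V12 arrays did not overlap for 5418 clusters (23.4%), and 2100 of the clusters called higher and 2432 of those called lower were among them. The median change over all clusters was 0.01. The largest fitted changes were not symmetrical, since 104 clusters rose by more than 4 on the log2 scale and 25 fell by as much. Beyond 2 on that scale the counts were closer, with 399 higher and 316 lower. These counts include fitted changes from or into signals below background. Of the clusters called higher, 718 lay below background on all CON arrays, and 777 of those called lower lay below background on all E-V12 arrays.

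**Figure D1:**
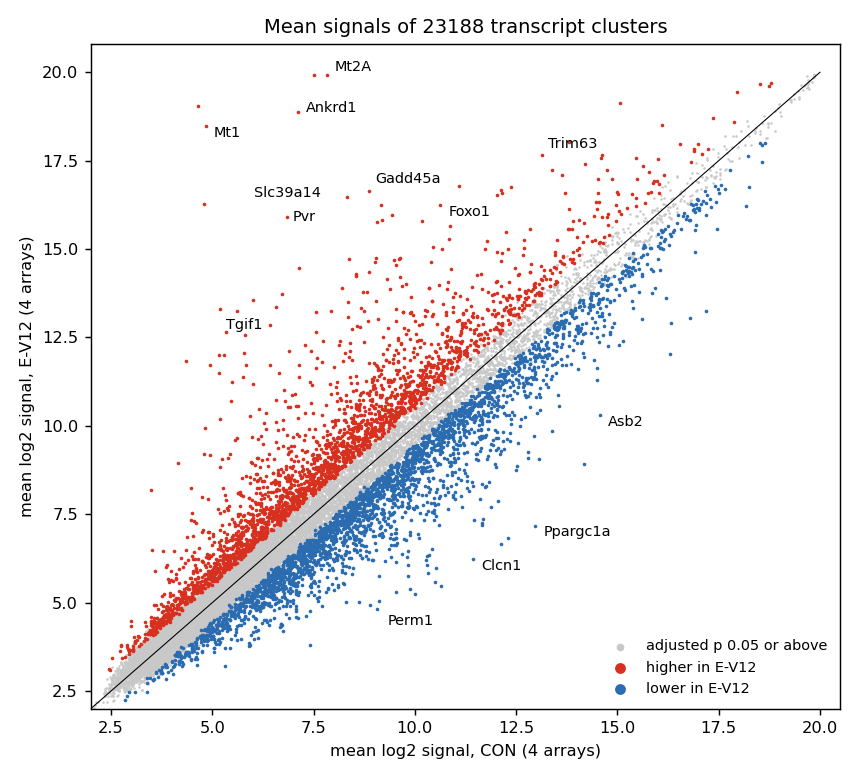
Mean log2 signal of each transcript cluster in CON (x axis) and E-V12 (y axis), 4 arrays each, with clusters called higher in red, lower in blue and the rest in grey. The metallothionein genes and Ankrd1 are among the clusters farthest above the line of equality, and Ppargc1a, Clcn1 and Asb2 are among those farthest below it.

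Mt1 and Mt2A, genes of the metallothioneins, small metal-binding proteins that hold zinc, had the highest changes of all clusters with a gene name. Metallothionein genes are known to be driven by the metal-responsive factor MTF1 through metal response elements, and also to respond to glucocorticoids and interleukin-6. The core of these elements was searched for with the loose pattern TGCNCNC, where N is any base. The 250 bases before the start of both genes (RefSeq, build GRCr8, minus strand, chr19:10832976-10833225 for Mt1 and chr19:10838709-10838958 for Mt2A) are shown because they hold many matches to this pattern, which are in capitals on either strand.
Mt1: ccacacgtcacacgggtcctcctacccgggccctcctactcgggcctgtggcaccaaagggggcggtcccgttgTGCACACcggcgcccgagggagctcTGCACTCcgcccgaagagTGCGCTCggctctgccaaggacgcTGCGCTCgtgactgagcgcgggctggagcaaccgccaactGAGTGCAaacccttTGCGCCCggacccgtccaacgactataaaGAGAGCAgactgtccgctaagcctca
Mt2A: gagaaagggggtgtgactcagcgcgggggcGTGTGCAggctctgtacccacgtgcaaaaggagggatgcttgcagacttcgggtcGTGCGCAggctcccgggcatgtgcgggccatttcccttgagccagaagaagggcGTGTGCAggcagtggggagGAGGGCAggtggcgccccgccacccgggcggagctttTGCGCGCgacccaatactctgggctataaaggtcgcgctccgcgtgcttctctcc
The upstream sequence held 7 matches for Mt1 and 5 for Mt2A. Of 12435 promoters of measured genes with a RefSeq sequence of this length, 49.8% held at least 1 match, 0.45% held 5 or more and 0.024% held 7 or more. Here and for the motifs given later, both strands were searched in the same window, and a match of letters is a description of the sequence only.

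On the CON arrays Mt1 read 4.51, 4.80, 5.61 and 4.44, below background throughout, against 18.54, 18.54, 18.70 and 18.10 on the E-V12 arrays. It was at least 3648-fold higher in E-V12 (adjusted p = 9.46e-21). Mt2A read 7.41, 8.30, 7.53 and 6.80 in CON and stood at the ceiling of 19.93 on all 4 E-V12 arrays, so that the rise of 12.42 ± 0.22 (at least 5474-fold, adjusted p = 3.12e-21) is itself a lower bound. The difference of Mt1 from V12 did not pass the test (-0.00 ± 0.26, adjusted p = 0.998, 95% interval -0.54 to 0.53), and Mt2A stood so near the ceiling in V12 (19.87 to 19.92) that a difference could not be resolved. Of the 15 measured metallothionein and zinc transport genes, 9 rose and 1 fell, with a median change of 0.75. Slc39a14, a zinc and iron importer known to be induced by interleukin-6, read 8.37, 8.29, 8.44 and 8.23 in CON and 16.67, 16.20, 16.68 and 16.38 in E-V12, a rise of 8.15 ± 0.35 (adjusted p = 1.29e-13). The groups were far apart and each was tight. Its relative Slc39a8 rose by 4.12 ± 0.51 (3.33 when the arrays were averaged by Tukey's biweight), the zinc exporter gene Slc30a4 by 2.09 ± 0.20 and Mtf1 itself by 0.72 ± 0.19. Slc30a1, the zinc exporter of the cell membrane, was the member that fell, from 8.17 ± 0.75 to 7.01 ± 0.22, and this call ended with the methods' t-test and adjusted p (0.108). Of the 14 promoters of this group listed by RefSeq, 11 (78.6%) held at least 1 match to the pattern TGCNCNC.

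Other genes with changes among the highest encode proteins of muscle stretch, cell adhesion, coagulation and stress. Ankrd1, an ankyrin repeat protein of the titin filament that responds to stretch and injury, read 6.10, 5.59, 6.35 and 10.40 in CON and 19.07, 18.65, 19.03 and 18.76 in E-V12. CON replicate 4 stood well above the other CON arrays, still below all E-V12 arrays, and the rise of 11.77 ± 0.77 (adjusted p = 1e-10) became a lower bound without it (at least 4611-fold), because the other CON arrays lay below background. Ankrd2, its relative of slow fibres, rose by 6.63 ± 0.36, from 9.20 ± 0.53 to 15.82 ± 0.33. Pvr, a nectin-like cell adhesion receptor, read 6.72, 6.46, 6.46 and 7.69 in CON and 16.27, 15.81, 15.90 and 15.61 in E-V12, a rise of 9.06 ± 0.37 (adjusted p = 6.23e-14). The thrombomodulin gene Thbd, an endothelial brake on coagulation, rose from 7.13 ± 0.79 to 14.46 ± 0.41. Fgl2, a membrane prothrombinase, lay below background on all CON arrays and was at least 121-fold higher in E-V12. The homeobox repressor gene Tgif1 (at least 101-fold), the protease inhibitor gene Serpina3n (at least 64.6-fold) and the metalloproteinase inhibitor gene Timp1 (at least 33.9-fold) also rose from CON arrays below background. Errfi1, a feedback inhibitor of the EGF receptor, rose by 7.08 ± 0.30, and Runx1, a transcription factor known to appear in denervated muscle, by 6.43 ± 0.32. Mrpl41, of the large mitochondrial ribosomal subunit, read 8.39, 9.79, 9.61 and 8.52 in CON and 15.20, 16.41, 15.87 and 15.58 in E-V12, a rise of 6.68 ± 0.34.

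Several of the genes with the lowest changes are genes of the muscle fibre. Ppargc1a, the gene of PGC-1α, read 13.19, 13.15, 13.26 and 12.30 in CON and 7.05, 7.54, 6.82 and 7.30 in E-V12 and fell by 5.79 ± 0.43 (adjusted p = 7.45e-10). The groups were more than 4 log2 units apart at their nearest arrays. Clcn1, the chloride channel that stabilises the resting membrane of muscle fibres, read 12.46, 10.91, 10.55 and 11.80 in CON and 6.90, 6.90, 5.76 and 5.33 in E-V12 and fell by 5.21 ± 0.43 (adjusted p = 4.07e-09), with 2 of the E-V12 arrays above background. Fsd2 fell by 5.27 ± 0.24 and Fgf1, a fibroblast growth factor, by 4.48 ± 0.41. Asb2, the substrate subunit of a ubiquitin ligase of muscle, read 13.87, 15.08, 14.61 and 14.70 in CON and 9.83, 10.86, 10.22 and 10.27 in E-V12, a change of -4.27 ± 0.42 (adjusted p = 6.02e-08) between groups that did not overlap. Trim35, a ubiquitin ligase, fell by 4.32 ± 0.23, and the LIM protein gene Fhl3 by 4.41 ± 0.42. Perm1, a muscle regulator of PGC-1 target genes, read 8.43, 9.38, 8.84 and 9.62 in CON and lay below background on all E-V12 arrays, at least 5.89-fold lower (adjusted p = 2.14e-11). The same held for P2ry1, a receptor for extracellular ADP (at least 14.0-fold lower), the Wnt modulator gene Dkk2 (at least 11.2-fold), Asb18 (at least 10.3-fold) and Eepd1 (at least 8.14-fold).

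**Figure D2:**
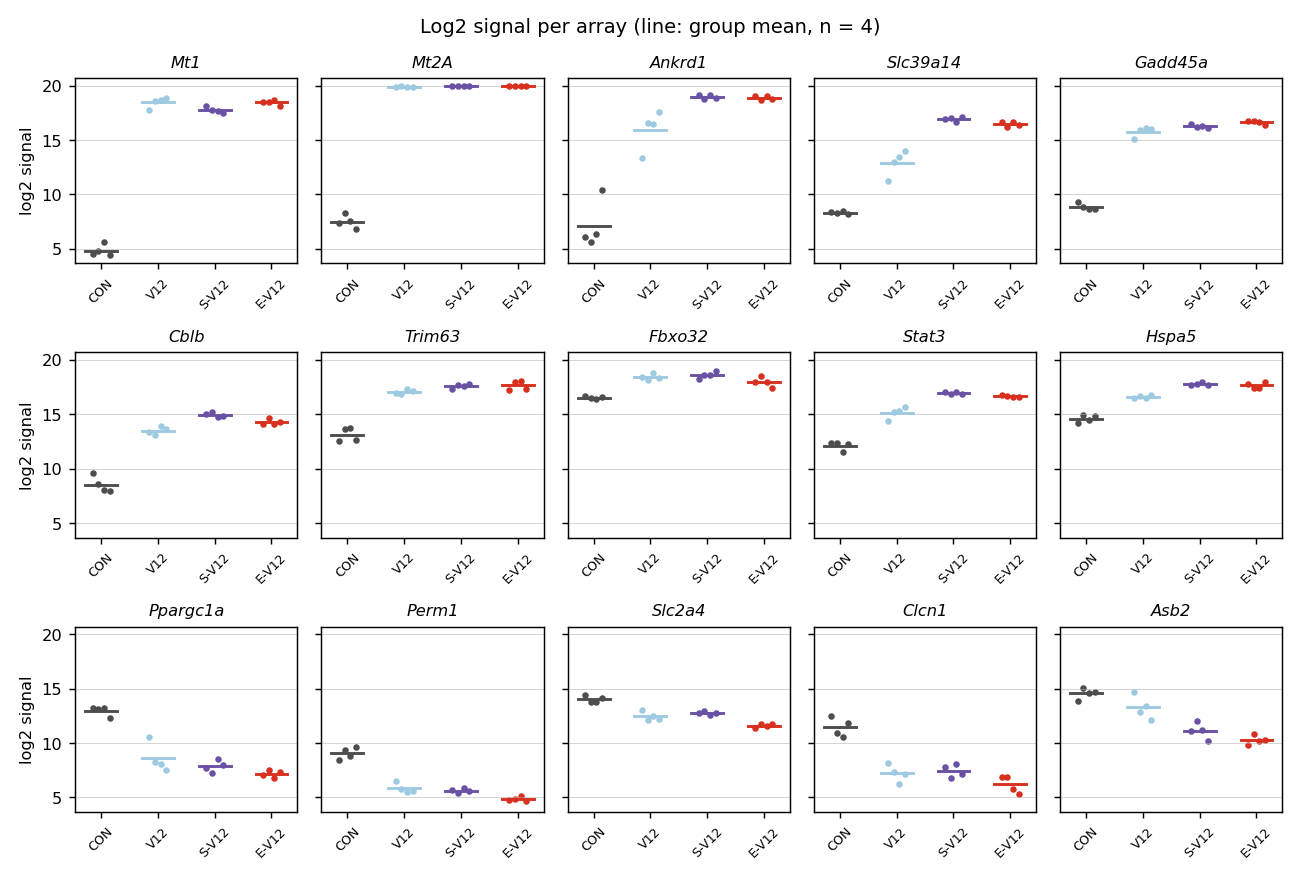
Log2 signal of 15 genes on every array of the 4 groups, with 1 point per rat and a line at the group mean (n = 4). The CON and E-V12 points are separate in all 15 panels, and CON replicate 4 is the single high CON point of Ankrd1 (10.40).

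Of 27 measured ubiquitin ligases and regulators of muscle atrophy, 12 rose and 6 fell, with a median change of 0.34. The count lower was 3 without CON replicate 1. Trim63, which marks myosin and other thick filament proteins for breakdown, read 12.54, 13.65, 13.75 and 12.61 in CON and 17.24, 17.96, 18.11 and 17.33 in E-V12 and rose by 4.52 ± 0.27 (adjusted p = 1.64e-11). Fbxo32, already strongly expressed in CON, read 16.69, 16.46, 16.41 and 16.57 there and 18.01, 18.52, 18.01 and 17.38 in E-V12, a rise of 1.45 ± 0.22 (adjusted p = 3.4e-05). The groups did not overlap for either gene. Foxo1, which drives both, rose by 5.62 ± 0.32, from 10.62 ± 0.92 to 16.25 ± 0.47, and Foxo3 by 1.96 ± 0.27. Cblb, a ligase known to remove the insulin receptor substrate IRS1 in unloaded muscle, read 9.64, 8.58, 8.04 and 7.94 in CON and 14.08, 14.67, 14.14 and 14.30 in E-V12 and rose by 5.75 ± 0.28 (adjusted p = 9.26e-13). Mstn, the gene of myostatin, which restrains muscle growth, rose by 3.81 ± 0.35, and the ligase gene Fbxo30 by 1.33 ± 0.21. On the lower side, Trim55, a relative of Trim63, fell by 1.88 ± 0.27 and Acvr2b, the receptor of myostatin, was at least 1.52-fold lower, with all E-V12 arrays below background.

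Of 27 autophagy and lysosome genes, 10 rose and 5 fell (median 0.09). The lysosomal protease gene Ctsl rose by 2.33 ± 0.24, the lysosomal membrane gene Lamp2 by 2.06 ± 0.20 and Map1lc3b, a protein of the autophagosome membrane, by 1.88 ± 0.22, whereas Tfeb, the transcription factor of lysosomal genes, fell by 1.41 ± 0.22. Of 45 proteasome genes 5 were higher and 1 lower (median 0.07), beside the 12.1% and 14.3% of all genes, and 9 were higher and 2 lower when only clusters above background were kept. Psmd8 of the regulatory particle was among those that rose, by 1.92 ± 0.24. Among 28 ubiquitin and ubiquitin-conjugating genes, 4 rose and 5 fell. Ube2g2, a conjugating enzyme of protein quality control in the endoplasmic reticulum, rose by 2.64 ± 0.22 and Ube2d1 fell by 1.38 ± 0.23.

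Of 26 genes of growth arrest and apoptosis, 11 rose and 1 fell (median 0.31). Without CON replicate 1 or without E-V12 replicate 3 the count lower was 0, and 7 were higher when only clusters above background in CON or E-V12 were kept. Gadd45a, a stress protein known to be induced in denervated and resting muscle and counted above with the regulators of atrophy, read 9.33, 8.82, 8.63 and 8.70 in CON and 16.72, 16.72, 16.69 and 16.39 in E-V12 and rose by 7.76 ± 0.22 (adjusted p = 4.14e-17). Cdkn1a, the inhibitor p21 of the cell cycle, read 8.08, 9.88, 9.67 and 8.49 in CON and 14.81, 14.77, 14.76 and 14.65 in E-V12, a rise of 5.72 ± 0.29 to a level that varied very little between rats. Gadd45g rose by 3.46 ± 0.45 (4.10 without CON replicate 1). Genes that restrain apoptosis rose as well, with Bcl2l1 (BCL-XL) higher by 5.01 ± 0.22 and Mcl1 by 2.48 ± 0.19.

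The interleukin-6 family signals through gp130 (Il6st), JAK kinases and STAT3, which induces its own inhibitor Socs3 and acute-phase genes. Of 30 genes of this group, 15 rose and 5 fell, with a median change of 0.98. Of the 30, 12 lay below background on all CON arrays and 10 on all E-V12 arrays. The 15 include Il6, which lay below background in both groups. Among the receptors, Il6r rose by 4.22 ± 0.24, Il6st by 2.08 ± 0.19 and the oncostatin M receptor gene Osmr by 2.91 ± 0.25, while Lifr, the receptor of leukaemia inhibitory factor, fell by 1.96 ± 0.26. Stat3 read 12.40, 12.34, 11.55 and 12.23 in CON and 16.78, 16.71, 16.63 and 16.56 in E-V12 and rose by 4.54 ± 0.24 (adjusted p = 1.78e-12), and the kinase gene Jak2 rose by 2.71 ± 0.23. Socs3 lay below background in CON (5.34, 5.66, 5.46 and 5.35) and read 11.54, 8.78, 11.72 and 10.80 in E-V12, at least 16.8-fold higher (adjusted p = 2.81e-08). E-V12 replicate 2 was the lowest E-V12 array of Socs3, still above all CON arrays, and without it the bound was 26.3-fold. The transcription factor gene Cebpd read 7.99, 7.54, 7.97 and 6.78 in CON and 13.09, 13.03, 13.66 and 13.15 in E-V12, a rise of 5.66 ± 0.24 (adjusted p = 7.23e-14), and Cebpb rose by 2.53 ± 0.24. Fgg, a fibrinogen chain made mainly in liver and counted below with the liver markers, read 5.45, 6.59, 7.06 and 7.22 in CON and 12.50, 12.16, 13.52 and 15.25 in E-V12, a rise of 6.78 ± 0.52 (6.15 without E-V12 replicate 4). Fga, another chain, was at least 1.51-fold higher, while Alb, the gene of albumin, lay below background on all arrays of both groups, as did Il6 itself, with signals of 4.19, 4.17, 4.44 and 3.94 in CON and 5.49, 4.73, 5.54 and 5.56 in E-V12. The STAT site TTCCNGGAA was found in 1 of 19 promoters of the group, that of Cish (5.3%, against 1.09% of all). Stat5b fell by 1.05 ± 0.22. Cish, a target of STAT5, fell by 1.83 ± 0.54, but its groups overlapped, the change was -2.52 without CON replicate 3, and the call ended without CON replicate 2 (adjusted p = 0.078), without CON replicate 4 (0.0501), with the methods' t-test (0.199) and with trended, robust variances (0.063).

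Of 38 NF-κB, TNF, Toll-like receptor and chemokine genes, 18 rose and 2 fell (median 0.74). The count higher was 9 when only clusters above background were kept and 11 with the methods' t-test, and the count lower was 1 when any of 12 arrays was left out. The receptor genes Il4r (by 4.68 ± 0.33), Tnfrsf12a (by 4.14 ± 0.49, 4.88 without CON replicate 4) and Tnfrsf1a (by 2.90 ± 0.26) rose, as did Myd88, the adaptor of Toll-like receptors, by 4.23 ± 0.34. Nfkbia, the inhibitor of NF-κB and one of its targets, rose by 1.87 ± 0.28. Ptx3, a soluble pattern recognition protein, lay below background in CON (3.45, 4.34, 4.52 and 4.31) and read 9.97, 7.71, 9.39 and 8.75 in E-V12, at least 4.99-fold higher. Ccl2, the chemokine that attracts monocytes, read 5.42, 6.41, 5.85 and 7.28 in CON and 10.96, 7.13, 8.52 and 9.52 in E-V12. Its lowest E-V12 array lay below the highest CON array, the rise of 2.79 ± 0.59 became 2.15 without E-V12 replicate 1 and 3.43 without E-V12 replicate 2, and the call ended with the methods' t-test (0.0991). Cxcl12, the chemokine of stromal cells, fell by 2.29 ± 0.27. Interferon response and MHC genes showed few calls, 2 higher and 1 lower of 37 (median -0.09), and the count lower lay between 0 and 3 when 1 array was left out. Of the 37, 25 lay below background on all CON arrays and 25 on all E-V12 arrays, so the few calls do not show that these genes were unchanged.

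Immediate early genes are induced within minutes to hours by contraction, growth factors or stress. Of 37 measured, 22 rose and 3 fell, with a median change of 1.20. Of the 37, 17 lay below background on all CON arrays and 8 on all E-V12 arrays. With the methods' t-test and adjusted p, 17 were higher. Egr1 read 7.90, 7.66, 7.82 and 9.98 in CON and 13.32, 12.45, 13.93 and 14.26 in E-V12 and rose by 5.15 ± 0.62 (adjusted p = 1.09e-06). CON replicate 4 was the highest CON array and lay below all E-V12 arrays, and the change was 5.79 with averages by Tukey's biweight. Klf6 read 6.44, 6.07, 6.40 and 6.79 in CON and 12.22, 11.26, 11.50 and 11.95 in E-V12, a rise of 5.31 ± 0.26 (adjusted p = 9.66e-13). Myc (at least 60.8-fold) and Junb (at least 41.0-fold) rose from CON arrays below background, and Fos rose by 2.20 ± 0.31. Zfp36, whose protein destabilises cytokine messengers, rose by 7.02 ± 0.39. The nuclear receptor genes of the NR4A family went in opposite directions. Nr4a3 rose by 4.04 ± 0.56, while Nr4a1 read 14.02, 11.83, 12.43 and 13.05 in CON and 9.34, 10.30, 10.50 and 12.01 in E-V12, a fall between overlapping groups whose call ended with the methods' t-test (0.093). The AP-1 site TGANTCA was found in 1 of 26 promoters of the group (3.8%, against 5.61% of all 12435) and the cyclic AMP response element TGACGTCA in 4 of 26 (15.4%, against 2.36%). Dusp10, a phosphatase of stress-activated kinases, fell by 4.16 ± 0.31 (adjusted p = 5.95e-10), from 12.04 ± 0.82 to 7.88 ± 0.26.

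Glucocorticoids act through the receptor Nr3c1 on target genes that in muscle include Fkbp5, Tsc22d3 and Sgk1. Of 24 genes of the receptor and its targets, 16 rose and 3 fell, and the median change of 1.59 was the highest of the 36 pathway lists. With the methods' t-test and adjusted p, 10 were higher. The list includes Mt2A, which was also counted with the metallothioneins. Fkbp5, a co-chaperone that restrains the receptor, read 9.99, 9.84, 9.98 and 8.74 in CON and 14.34, 14.81, 14.77 and 15.01 in E-V12 and rose by 5.10 ± 0.24 (adjusted p = 4.95e-13). Tsc22d3, the gene of the glucocorticoid-induced leucine zipper, read 12.03, 12.63, 12.79 and 11.54 in CON and 15.35, 15.67, 15.46 and 15.51 in E-V12, a rise of 3.25 ± 0.25 (adjusted p = 1.45e-09). Neither gene had overlapping groups. Sgk1, a kinase, rose by 5.08 ± 0.42, and Pdk4, the kinase that shuts pyruvate out of the mitochondrion, by 4.09 ± 0.25 to 19.14 ± 0.28, close to the ceiling. The receptor genes fell: Nr3c1 read 12.27, 12.62, 12.49 and 12.09 in CON and 10.27, 10.24, 9.92 and 10.41 in E-V12, a fall of 2.16 ± 0.20 (adjusted p = 2.87e-08), and the mineralocorticoid receptor gene Nr3c2 was at least 8.18-fold lower. The half-site AGAACA of the receptor was found in 2 of 20 promoters of the group (10.0%) and in 12.9% of all.

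Among 19 circadian clock genes, 4 rose and 2 fell (median 0.17), beside 12.1% and 14.3% of all genes. The higher count was 8 without CON replicate 1, and the lower count was 4 without CON replicate 2. Nfil3, a repressor of the clock output, rose by 4.26 ± 0.35. Per1 read 11.87, 9.0, 9.0 and 8.44 in CON and 11.46, 11.75, 11.75 and 12.25 in E-V12. CON replicate 1 lay within the E-V12 range and far above the other CON arrays, and the change of 2.22 ± 0.47 was 2.98 without it. Nr1d1, the gene of REV-ERBα, read 12.92, 12.21, 10.55 and 13.92 in CON and 10.34, 10.93, 10.61 and 9.67 in E-V12, a change of -2.01 ± 0.49 that was -2.63 without CON replicate 3. The output gene Usp2 read 13.60, 10.99, 10.84 and 10.84 in CON and 8.66, 9.10, 8.71 and 9.66 in E-V12, a change of -2.54 ± 0.49 that was -1.86 without CON replicate 1. The calls of Per1, Nr1d1 and Usp2 ended with the methods' t-test and adjusted p (0.127, 0.144 and 0.0693). In the promoters of 17 clock genes the E-box CACGTG was found in 3 (17.6%, against 7.01% of all) and the D-box TTATGTAA in 1 (5.9%, against 0.69%). The times of day at which the tissues were taken are not stated in the sources used here.

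The unfolded protein response of the endoplasmic reticulum runs through ATF6, XBP1 and ATF4, which induce chaperones and amino acid genes. Of 32 genes of this group 24 rose and 0 fell, with a median change of 1.25. The chaperone gene Hspa5 (BiP) read 14.19, 14.90, 14.51 and 14.87 in CON and 17.82, 17.45, 17.44 and 18.00 in E-V12 and rose by 3.06 ± 0.20 (adjusted p = 6.69e-11). Atf4 read 14.60, 15.02, 14.47 and 14.89 in CON and 17.30, 17.31, 17.19 and 17.20 in E-V12, a rise of 2.51 ± 0.20 (adjusted p = 1.77e-09). The groups did not overlap for either gene. Atf6 rose by 2.13 ± 0.19, Xbp1 by 1.97 ± 0.20 and Ppp1r15a, which ends the arrest of translation, by 3.90 ± 0.24. Asns, an ATF4 target that makes asparagine, read 4.02, 4.60, 5.13 and 3.64 in CON and 6.98, 6.22, 6.37 and 6.36 in E-V12, with only 1 E-V12 array above background.

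Heat shock proteins and chaperones were divided, with 12 of 31 higher and 4 lower (median 0.29), and 6 were higher with the methods' t-test. The small heat shock protein gene Hspb1 rose by 3.48 ± 0.35, from 13.63 ± 0.44 to 17.11 ± 0.29, while Hspb3, a muscle member of that family, fell from 10.28 ± 0.19 to 6.20 ± 0.24, a change of -4.07 ± 0.22 (adjusted p = 4.08e-12). The heat shock element GAANNTTC (either strand) occurred in 9 of the 26 promoters of this group in RefSeq (34.6%) and in 5.47% of all 12435. Of 33 NRF2 and antioxidant genes 12 rose and 6 fell (median 0.41), with 10 lower without CON replicate 1 and 6 higher with the methods' t-test. Srxn1, which repairs peroxiredoxins, lay below background in CON (6.17, 5.35, 5.39 and 6.22) and read 12.65, 11.27, 12.08 and 12.29 in E-V12, at least 43.3-fold higher (adjusted p = 6.68e-11). The thioredoxin reductase gene Txnrd1 rose by 4.34 ± 0.28, Nfe2l2, the gene of NRF2, by 2.77 ± 0.23, and Hmox1, the haem oxygenase gene, was at least 41.2-fold higher. Sod3, the extracellular superoxide dismutase gene, fell by 2.17 ± 0.40. Of 27 hypoxia response genes 8 rose and 4 fell (median 0.26). Pfkfb3, an activator of glycolysis, rose by 5.69 ± 0.24 and the glucose transporter gene Slc2a1 by 3.52 ± 0.33, and Adm, the gene of adrenomedullin, was at least 5.39-fold higher, whereas Vegfa, the main angiogenic factor, fell by 1.41 ± 0.28 (adjusted p = 0.000529).

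Of the 36 pathway lists, ribosome production had the highest share of its genes called higher. Of 32 ribosome biogenesis factors, which make and fold ribosomal RNA in the nucleolus, 28 rose and 1 fell, with a median change of 1.42. Wdr43, a factor of the small subunit processome, read 11.66, 12.01, 11.56 and 11.85 in CON and 15.43, 15.09, 15.18 and 15.27 in E-V12 and rose by 3.47 ± 0.22 (adjusted p = 7.59e-11). Nop58, a core protein of the particles that methylate ribosomal RNA, read 9.59, 9.95, 9.36 and 9.45 in CON and 12.53, 12.15, 12.44 and 12.59 in E-V12, a rise of 2.84 ± 0.21 (adjusted p = 8.38e-10). The nucleolin gene Ncl rose by 2.09 ± 0.17 and Polr1b, a subunit of RNA polymerase I, by 1.62 ± 0.20. Ubtf, the factor that opens ribosomal DNA for this polymerase, was the member that fell, by 1.18 ± 0.21. The E-box CACGTG, known to bind MYC and the clock factors, was present in 8 of 29 promoters of the group (27.6%) and in 7.01% of all. For the ribosomal proteins themselves the counts were unstable. Of 69 cytosolic ribosomal protein genes 11 were higher and 1 lower (median 0.43), but 2 were higher without CON replicate 1, 20 without CON replicate 2, 7 without E-V12 replicate 1, 3 without E-V12 replicate 3 and 2 with the methods' t-test. Rpl3 rose by 2.81 ± 0.35, from 7.80, 9.97, 9.56 and 9.54 in CON to 12.10, 11.49, 12.53 and 11.98 in E-V12, and its muscle-specific paralogue Rpl3l fell by 1.09 ± 0.20, from 13.48, 13.23, 13.46 and 13.53 to 12.47, 12.32, 12.38 and 12.16.

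Of 27 amino acid transporter genes 12 rose and 5 fell (median 0.34), with 3 lower without E-V12 replicate 2 or 3. The subunits of the large neutral amino acid transporter LAT1 rose together: Slc7a5 lay below background in CON (5.44, 5.28, 4.85 and 5.19) and read 10.33, 10.59, 9.34 and 10.56 in E-V12, at least 11.9-fold higher (adjusted p = 4.71e-10), and Slc3a2 rose by 2.73 ± 0.18. Slc7a6, which exchanges cationic amino acids, read 7.95, 7.70, 8.34 and 7.78 in CON and 13.05, 13.35, 13.52 and 13.08 in E-V12, a rise of 5.31 ± 0.26 (adjusted p = 9.66e-13). The creatine transporter gene Slc6a8 fell by 2.16 ± 0.33. Of 32 genes of insulin, AKT, mTOR and AMPK signalling 8 rose and 8 fell. Irs1, the insulin receptor substrate, read 10.01, 10.72, 11.36 and 11.21 in CON and 7.81, 7.45, 8.0 and 7.29 in E-V12 and fell by 3.19 ± 0.26 (adjusted p = 3.11e-09), and Eif4ebp1, the mTOR-controlled brake on translation, rose by 3.74 ± 0.23.

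Genes of mitochondrial biogenesis were split. Of 28 measured, 7 rose and 11 fell (median -0.30). All 3 members of the PGC-1 coactivator family were called. Beside Ppargc1a, Ppargc1b lay at 9.86, 8.53, 8.51 and 9.57 in CON and below background in E-V12, at least 6.10-fold lower (adjusted p = 3.24e-09), whereas the third member, Pprc1, read 6.54, 6.17, 7.0 and 6.73 in CON and 9.64, 9.37, 9.03 and 9.49 in E-V12 and rose by 2.77 ± 0.23 (adjusted p = 4.3e-09). Esrrg, a nuclear receptor partner of PGC-1, fell by 3.27 ± 0.24. Of 71 subunits of oxidative phosphorylation 0 rose and 21 fell (median -0.34), with 33 lower without CON replicate 1. The falls were small beside those above. Uqcrfs1, the Rieske protein of complex III, read 15.87, 16.18, 15.95 and 16.35 in CON and 15.15, 15.12, 14.90 and 14.99 in E-V12, a change of -1.05 ± 0.18 (adjusted p = 0.000129). Sdhd of complex II fell by 1.05 ± 0.18 and Uqcr10 of complex III by 1.05 ± 0.20. Among 66 mitochondrial ribosomal proteins 1 rose, the Mrpl41 described above, and 21 fell (median -0.46), among them Mrpl40 by 1.67 ± 0.22 and Mrpl47 by 1.63 ± 0.25. With the methods' t-test 13 were lower. Of 32 import and carrier genes 2 rose and 7 fell, with 4 higher without CON replicate 2, beside 12.1% and 14.3% of all genes. The carrier that exchanges ADP and ATP encoded by Slc25a5 rose by 2.33 ± 0.20, and Timm21 of the inner membrane translocase fell by 1.65 ± 0.22.

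Most of the calls in the list of glucose use were falls. Of 37 genes of glucose uptake, glycolysis and glycogen 19 fell and 1 rose (2 rose without CON replicate 1), with a median change of -0.60, and 12 were lower with the methods' t-test. The member that rose was Pdk4, described above. The glucose transporter gene Slc2a1 (3.52) and the glycolysis activator gene Pfkfb3 (5.69) also rose, but were counted with the hypoxia response genes and not here. Slc2a4, the gene of GLUT4, read 14.44, 13.80, 13.74 and 14.16 in CON and 11.37, 11.73, 11.56 and 11.75 in E-V12 and fell by 2.43 ± 0.21 (adjusted p = 1.1e-08). The glycogen synthase gene Gys1 fell by 2.05 ± 0.23, and Ppp1r3a, which directs a phosphatase to glycogen in muscle, by 2.57 ± 0.24. Pfkfb1, the muscle and liver isoform of the enzyme whose relative Pfkfb3 rose, read 11.40, 9.81, 10.42 and 9.60 in CON and 6.27, 6.93, 5.92 and 6.19 in E-V12, a change of -3.98 ± 0.40 (adjusted p = 8.42e-08). Gpd2, of the glycerol phosphate shuttle, fell by 3.46 ± 0.25. Of 43 fatty acid and PPAR genes 11 rose and 14 fell (median -0.52), with 4 higher under the methods' t-test. Plin2, which coats lipid droplets, read 9.12, 9.06, 9.07 and 9.08 in CON and 11.73, 11.45, 11.98 and 11.39 in E-V12 and rose by 2.56 ± 0.19 (adjusted p = 9.77e-10). Dgat2, of triglyceride synthesis, rose by 2.14 ± 0.37, while Acsl1, which activates fatty acids, fell by 1.22 ± 0.27, and the nuclear receptor genes Ppara and Rxrg fell by 2.89 ± 0.29 and 2.70 ± 0.30.

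The lowest median of the 36 pathway lists, -1.26, belonged to excitation-contraction coupling and muscle ion channels, where 19 of 29 genes fell and 2 rose. Besides Clcn1, the inward rectifier gene Kcnj2 read 11.83, 11.12, 10.99 and 11.26 in CON and 8.54, 8.45, 8.70 and 8.68 in E-V12 and fell by 2.70 ± 0.30 (adjusted p = 3.95e-07). Kcnj11, the pore of the ATP-sensitive potassium channel, fell by 2.68 ± 0.28 and the potassium channel gene Kcna7 by 2.64 ± 0.25. Scn4a, the sodium channel of the muscle action potential, read 14.51, 13.11, 13.05 and 13.29 in CON and 11.59, 11.74, 11.20 and 11.49 in E-V12, a change of -1.98 ± 0.25 (adjusted p = 2.7e-06) in which CON replicate 1 was the highest CON array. Stac3, which couples the voltage sensor to calcium release, fell by 2.09 ± 0.21, and Jph2, which holds the membranes of the triad together, by 1.72 ± 0.28. Cav3, the muscle caveolin, fell by 1.49 ± 0.21. Pln, the gene of phospholamban, an inhibitor of the calcium pump of slow and cardiac fibres, was one of those that rose, by 2.31 ± 0.35.

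Few of the fast-fibre and slow-fibre contractile protein genes passed the test, and many lay near the ceiling. Of 15 fast-fibre genes 0 were higher or lower (median -0.06), with 1 lower without CON replicate 3 or without E-V12 replicate 1. Of 11 slow-fibre genes 0 rose and 3 fell (median -0.22), with 5 lower without CON replicate 3. Tnni1, slow troponin I, fell by 0.85 ± 0.18, from 16.69 ± 0.22 to 15.84 ± 0.16, and Casq2, the slow calsequestrin, by 1.02 ± 0.26. Myh7b read 8.66, 6.27, 5.0 and 6.22 in CON and lay below background on all E-V12 arrays, at least 1.02-fold lower, and its call ended with the methods' t-test (0.158). The fitted change of Myh7b, -1.96 ± 0.47, was -1.26 without CON replicate 1. Of 25 other sarcomere and Z-disc genes 13 fell and 1 rose (median -0.59), with 5 lower under the methods' t-test. Tmod4, which caps thin filaments, read 15.06, 15.54, 15.26 and 15.55 in CON and 13.62, 13.76, 13.47 and 13.27 in E-V12 and fell by 1.82 ± 0.19 (adjusted p = 1.23e-07). Trim72, of membrane repair, fell by 2.06 ± 0.22. Of 15 stretch-responsive ankyrin repeat and LIM genes 4 rose and 4 fell, and Csrp3, the muscle LIM protein, was among those that rose, by 3.27 ± 0.38.

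Among 23 myogenic regulators and MEF2/HDAC factors 5 rose and 9 fell (median -0.40). Of the 23, 2 lay below background on all CON arrays and 7 on all E-V12 arrays. The myogenic factor genes differed from each other. Myf6, the factor of mature fibres, read 10.25, 11.39, 11.43 and 10.31 in CON and 15.38, 15.15, 15.56 and 15.01 in E-V12 and rose by 4.43 ± 0.25 (adjusted p = 5.37e-12). Myog, myogenin, rose by 3.40 ± 0.26, from 6.76 ± 0.48 to 10.16 ± 0.51, and Myf5 by 4.31 ± 0.34. Myod1 lay below background on all arrays of both groups, with signals of 5.27 to 5.99 in CON and 4.39 to 5.23 in E-V12. Its limma call as lower rests on signals that carry no level, and it ended with the methods' t-test (adjusted p = 0.0797). The histone deacetylase genes Hdac9 and Hdac5, repressors of MEF2, were lower, Hdac9 with a change of -2.55 ± 0.31 and Hdac5 at least 2.78-fold. Nfatc1, the calcineurin-controlled factor of slow fibres, was at least 3.23-fold lower, whereas Rcan1, a calcineurin inhibitor induced by calcineurin itself, read 12.80, 13.76, 12.78 and 14.22 in CON and 17.48, 16.36, 17.36 and 17.71 in E-V12 and rose by 3.84 ± 0.32 (adjusted p = 4.01e-09). Vgll2, a muscle cofactor of TEAD factors, fell by 2.74 ± 0.22.

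At the neuromuscular junction 5 of 21 genes rose and 8 fell (median -0.07), with 5 lower without CON replicate 1, 4 lower with the methods' t-test and 1 lower when only clusters above background were kept. Chrna1, the α subunit of the acetylcholine receptor, read 8.22, 8.12, 8.0 and 9.30 in CON and 13.04, 12.01, 12.83 and 11.54 in E-V12 and rose by 3.94 ± 0.30 (adjusted p = 8.38e-10). Musk, the kinase that gathers the receptors, read 8.20, 8.04, 7.06 and 6.93 in CON and 11.78, 11.12, 12.06 and 11.58 in E-V12, a rise of 4.08 ± 0.30 (adjusted p = 6.46e-10). Both genes are known to rise after denervation. Other genes of the synapse were lower. Ache, acetylcholinesterase, fell by 2.17 ± 0.31, while Dok7 and Rapsn lay below background on all E-V12 arrays and were at least 1.11-fold and 1.09-fold lower. Without CON replicate 1 the bound of Dok7 no longer showed it lower. Of 33 genes of adrenergic, purinergic and cyclic nucleotide signalling 7 rose and 9 fell. The phosphodiesterase genes Pde4b and Pde4a moved in opposite directions, Pde4b by 5.12 ± 0.26 and Pde4a by -3.17 ± 0.27, and Crem, a repressor and activator of cyclic AMP target genes, rose by 4.29 ± 0.31.

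Of 47 wound and extracellular matrix genes 17 rose and 9 fell (median 0.17), and with the methods' t-test 11 were higher and 5 lower. Thbs1, a matrix protein released at injury, read 4.51, 6.02, 6.02 and 6.46 in CON and 11.89, 10.22, 11.22 and 12.18 in E-V12 and rose by 5.63 ± 0.64 (adjusted p = 5.44e-07). The matrix protease gene Adamts1 rose by 3.80 ± 0.24, the integrin gene Itgb1 by 2.98 ± 0.21, and Vcan, the proteoglycan versican, was at least 2.47-fold higher. Among fibrous proteins, Fbn1 (fibrillin) fell by 1.99 ± 0.38 and Col1a1 by 1.76 ± 0.53. The call of Fbn1 ended with the methods' t-test (0.0657), and that of Col1a1 with the same test (0.0518), with trended, robust variances (0.0714) and without CON replicate 2, CON replicate 3 or E-V12 replicate 1 (0.0558, 0.0525 and 0.0737).

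Markers of other cell types moved with the comparison, and their part in the results above was not tested. Of 17 monocyte and macrophage markers 7 rose and 0 fell, and the log2 of their summed signal lay between 10.7 and 12.2 in CON and between 13.2 and 14.8 in E-V12, with 8 of the 17 below background in CON and 5 in E-V12. Lyz2 rose by 2.72 ± 0.42, Cd163 by 2.48 ± 0.42 and Mrc1 by 2.37 ± 0.36. Of 11 neutrophil markers, all below background in CON, 4 were higher, 2 without E-V12 replicate 1 and 0 when only clusters above background were kept, and their summed signal lay between 8.0 and 8.18 in CON and between 8.60 and 10.7 in E-V12. S100a9 read 5.05, 5.61, 5.51 and 5.48 in CON and 10.04, 6.49, 6.89 and 7.56 in E-V12, at least 2.16-fold higher, or at least 1.27-fold without E-V12 replicate 1, a call that ended with the methods' t-test (0.118).

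Fibroblast markers fell in 7 of 12 cases and rose in 2, with 3 lower without CON replicate 2 and 4 without CON replicate 3 or E-V12 replicate 1. With the methods' t-test 1 was lower and 0 were higher. The changes of these markers ran from -3.08 ± 0.41 for Cd34 to 1.92. Their summed signal was 15.2 to 17.0 in CON and 16.8 to 17.7 in E-V12. Of 14 smooth muscle and pericyte markers 0 rose and 7 fell, among them Lmod1 by 3.20 ± 0.22, and Tagln was at least 2.93-fold lower, with summed signals of 18.6 to 19.4 in CON and 18.5 to 18.7 in E-V12. Endothelial markers were 1 higher and 4 lower of 14, with 2 lower without CON replicate 2, CON replicate 3 or E-V12 replicate 3. The count higher was 0 without E-V12 replicate 2. Changes ran from -1.74 ± 0.40 for Cdh5 to 0.67, with summed signals of 11.8 to 12.5 in CON and 11.3 to 11.7 in E-V12. Mesothelial markers were 1 higher and 2 lower of 11, with changes from -3.41 ± 0.44 for Gpm6a to 1.19. The count higher ranged from 0 to 2 when 1 array was left out. Haemoglobin and red cell markers were 0 higher and 2 lower of 18 (4 lower without CON replicate 1), lymphocyte and mast cell markers 0 and 2 of 12 (1 lower without CON replicate 2 or 4), adipocyte markers 1 and 0 of 13 (0 and 3 without CON replicate 1), Schwann cell markers 0 and 0 of 10, and liver markers 2 and 0 of 13, both of them fibrinogen chains. Many of these markers lay below background on all arrays of a group. The counts in CON and E-V12 were 11 and 11 for haemoglobin and red cells, 10 and 9 for lymphocytes and mast cells, 6 and 7 for adipocytes, 6 and 6 for Schwann cells and 12 and 11 for liver. The few calls therefore do not show that these cell types were unchanged. When only clusters above background were kept, 0 lymphocyte and mast cell markers were lower. Of 32 cell cycle genes 6 rose and 4 fell (3 rose without CON replicate 3), beside 12.1% and 14.3% of all genes. Of the 32, 23 lay below background on all CON arrays and 23 on all E-V12 arrays. The replication genes Pcna and Mcm4 rose by 1.95 ± 0.19 and 1.67 ± 0.22, and Ccnd3, cyclin D3, fell by 1.27 ± 0.21.

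**Figure D3:**
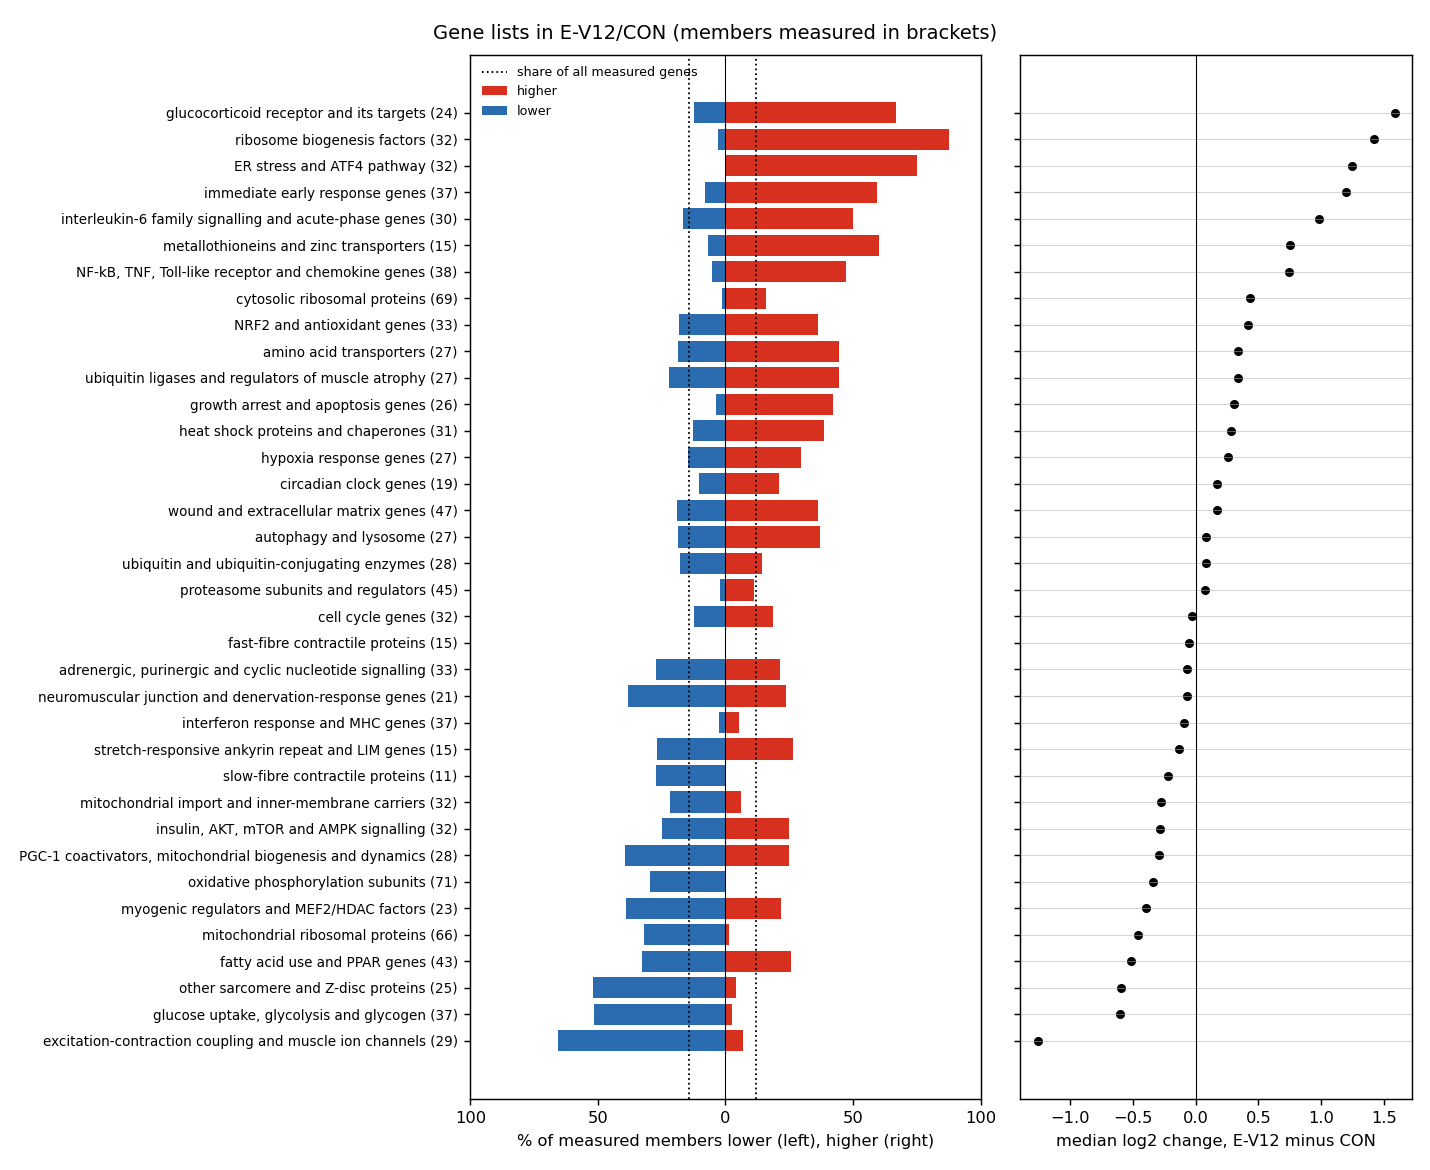
Share of the measured members of each of 36 gene lists that were higher (right, red) or lower (left, blue) in E-V12 than in CON, with dotted lines at the shares of all measured genes (12.1% and 14.3%), and the median log2 change of each list in the right panel. The medians run from -1.26 for excitation-contraction coupling and ion channels to 1.59 for the glucocorticoid receptor and its targets.

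The comparisons of the ventilated groups with CON share the CON arrays, so E-V12 was also compared directly with V12 and with S-V12 in the same model. Against V12, which lacked the operation, the oxygen and the stimulation, 1101 clusters (4.75%) were higher and 883 (3.81%) lower, or 841 (5.59%) and 608 (4.04%) of the gene symbols. Against S-V12, which lacked only the stimulation, 277 clusters (1.19%) were higher and 351 (1.51%) lower, or 149 (0.991%) and 265 (1.76%) of the symbols. The latter counts depended on single arrays, ranging from 45 to 526 higher and from 29 to 656 lower when 1 array was left out, with the lowest counts without E-V12 replicate 3. The 3 comparisons share the E-V12 arrays. Gene symbols past the adjusted p against all 3 groups numbered 10 higher and 36 lower.

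Thbd, Socs3, Slc39a14, Klf6 and Cd93 were among the genes of E-V12/CON with the clearest rise beyond V12. Thbd read 7.80, 9.63, 10.59 and 10.33 in V12, 15.23, 14.62, 15.08 and 13.76 in S-V12 and 15.07, 14.38, 14.16 and 14.25 in E-V12, and E-V12 was 4.88 ± 0.47 above V12 (adjusted p = 1.6e-06), or 4.28 without V12 replicate 1. Socs3 was 3.86 ± 0.49 above V12 (adjusted p = 3.23e-05), or 4.50 without E-V12 replicate 2, and Slc39a14 3.56 ± 0.35 above it (adjusted p = 3.06e-06). Both had E-V12 arrays that lay apart from all V12 arrays. Cd93, an endothelial and myeloid receptor, lay below background on all CON arrays, read 5.74, 5.22, 5.63 and 4.71 in V12 and 9.65, 9.15, 8.20 and 8.39 in E-V12, and was at least 5.17-fold above V12 (adjusted p = 6.87e-07), where all V12 arrays lay below background too. Ehd4, an endosome protein, was 3.49 ± 0.32 above V12, Slc7a5 3.06 ± 0.36 and Slc2a1 2.74 ± 0.33. None of these 8 genes, Klf6 (3.06 ± 0.26 above V12) included, differed from S-V12 past the adjusted p (lowest adjusted p = 0.108, for Socs3). By list, ribosome biogenesis factors were higher than in V12 in 19 of 32 cases and lower in 0, immediate early genes in 17 of 37 and 1, interleukin-6 family genes in 14 of 30 and 1, and endoplasmic reticulum stress genes in 14 of 32 and 1.

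Lower than in V12 were Asb2 (-2.98 ± 0.42, adjusted p = 9.21e-05) and Fhl3 (-2.28 ± 0.42, adjusted p = 0.00115), calls that ended with the methods' t-test (0.0568 and 0.0848). Vamp2, a protein of vesicle fusion, read 10.98, 10.35, 10.59 and 11.07 in CON, 12.41, 12.13, 12.43 and 11.58 in V12 and 9.85, 10.43, 10.25 and 9.59 in E-V12, with a difference from V12 of -2.11 ± 0.24 (adjusted p = 1.27e-05). Its CON and E-V12 arrays overlapped. Mlxipl, a glucose-sensing transcription factor, was -1.83 ± 0.30 against V12 (adjusted p = 0.000414), and Stac3 and Tmod4 were -1.41 ± 0.21 and -1.46 ± 0.19 against V12. Oxidative phosphorylation genes were lower than in V12 in 17 of 71 cases and higher in 0, and the count lower ranged from 11 to 24 when 1 array was left out.

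Among the genes that differed from S-V12, Nfic, a transcription factor of the nuclear factor I family, read 12.80, 11.43, 11.62 and 12.03 in CON, 11.62, 10.60, 10.98 and 10.54 in V12, 10.40, 10.61, 10.28 and 10.44 in S-V12 and 9.06, 8.97, 9.04 and 8.63 in E-V12. It was lower in E-V12 than in every other group, by 3.04 ± 0.26 against CON, 2.01 ± 0.26 against V12 and 1.50 ± 0.26 against S-V12 (adjusted p = 8.15e-09, 4.14e-05 and 0.00672). Slc2a4 read 13.02, 12.11, 12.46 and 12.17 in V12 and 12.78, 12.97, 12.60 and 12.75 in S-V12, and E-V12 was lower than S-V12 by 1.18 ± 0.21 (adjusted p = 0.00862). It also lay below V12 (-0.84 ± 0.21), where the call ended without V12 replicate 1 (0.0685) or E-V12 replicate 1 (0.056) or with the methods' t-test (0.112). Mef2d, a factor of muscle-specific genes, read 12.93, 12.69, 12.43 and 12.87 in S-V12 and 11.48, 11.52, 10.82 and 11.09 in E-V12, a difference of -1.50 ± 0.26 (adjusted p = 0.00672). The zinc finger gene Zfp385a differed by -1.65 ± 0.26, the adhesion gene Parvb by -1.43 ± 0.26, and Gpd1, of the glycerol phosphate shuttle, by -1.07 ± 0.21. Scn4a (-1.30 ± 0.25) and Spsb1 (-1.18 ± 0.24), a substrate adaptor of a ubiquitin ligase, were also lower than in S-V12, though not without E-V12 replicate 3 (0.0581 for both).

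Higher than in S-V12 were Fbl, the enzyme that methylates ribosomal RNA, which read 8.02, 8.11, 8.04 and 8.26 in S-V12 and 9.15, 8.83, 9.07 and 9.19 in E-V12 (0.95 ± 0.18, adjusted p = 0.011), and Rpl23 (1.26 ± 0.25, 0.0581 without E-V12 replicate 3). Of the cytosolic ribosomal proteins 27 of 69 and of the oxidative phosphorylation subunits 24 of 71 were higher than in S-V12, with 0 lower, but these counts ranged from 4 to 44 and from 8 to 36 when 1 array was left out. Ndufa2, a subunit of complex I, read 8.70, 10.63, 10.63 and 10.20 in CON, 9.24, 9.48, 9.20 and 9.62 in V12, 8.33, 8.55, 8.78 and 8.0 in S-V12 and 10.36, 10.13, 9.78 and 9.86 in E-V12. E-V12 lay above S-V12 by 1.62 ± 0.31 (adjusted p = 0.0106) and differed from CON by -0.01 ± 0.31 (adjusted p = 0.991, 95% interval -0.65 to 0.63), a difference that lay between -0.45 and 0.19 when 1 array was left out. Klhl40, a stabiliser of thin filament proteins, was 2.40 ± 0.39 above V12 (adjusted p = 0.00036) and 0.48 ± 0.39 against CON (adjusted p = 0.432, 95% interval -0.32 to 1.28). Bcl6, a transcriptional repressor, rose against CON by 1.52 ± 0.25 and lay below V12, with a difference of -1.17 ± 0.25 (adjusted p = 0.004).

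**Figure D4:**
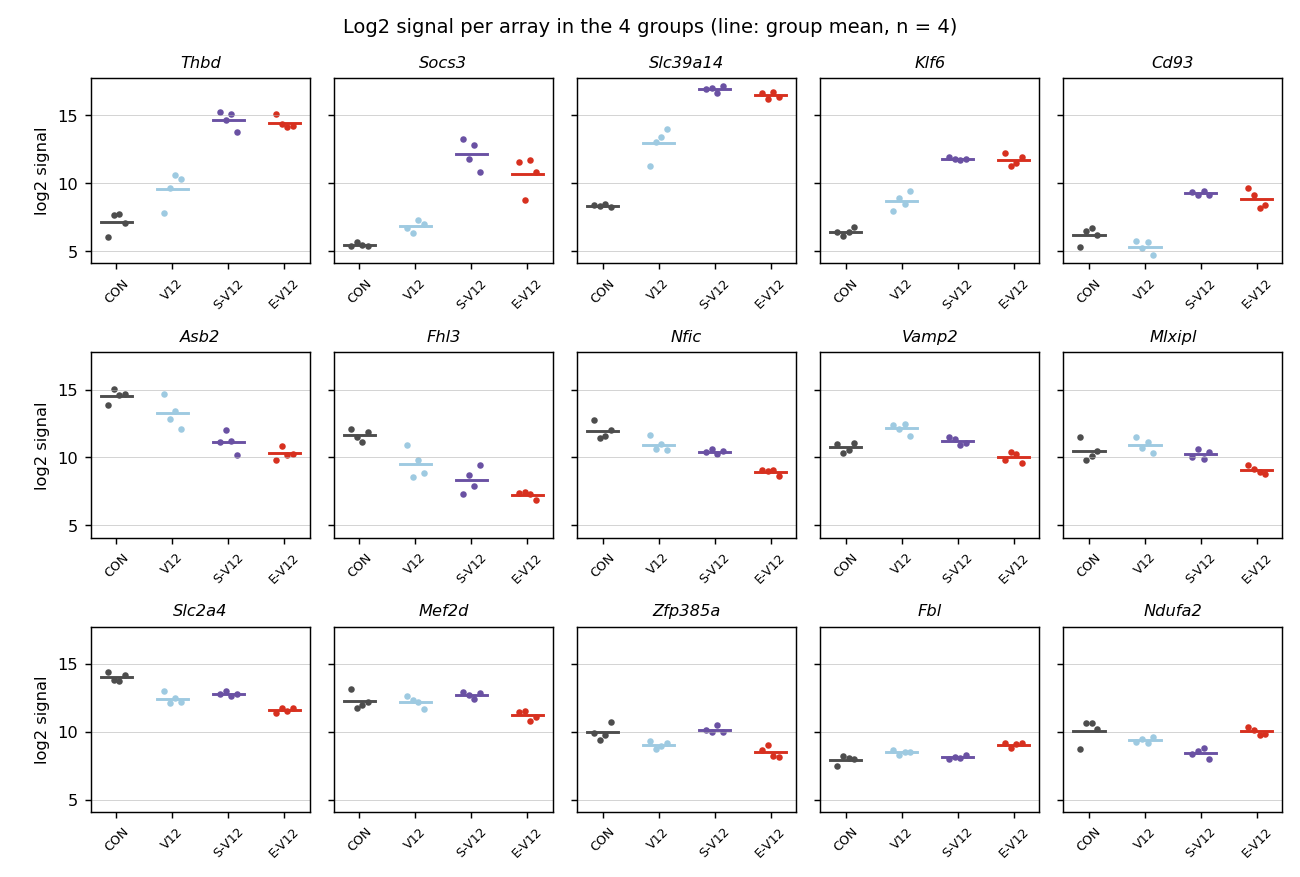
Log2 signal of 15 genes on every array of the 4 groups, with 1 point per rat and a line at the group mean (n = 4). In the top row the E-V12 points lie above the V12 points. They lie near the S-V12 points except for Socs3, where the mean difference from S-V12 is -1.47. Nfic, Slc2a4, Mef2d and Zfp385a have their lowest mean in E-V12.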

How the data were processed

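Each of 16 Clariom S arrays held the diaphragm RNA of 1 rat. The log2 signal of every transcript cluster had been computed by the authors, normalized on the total intensity of the array by SST-RMA in Transcriptome Analysis Console, and these values were used without further normalization. Where a group lay below background, the bound takes for each array the higher of the gene's own signal and the highest background probe set. Of 24834 table entries, 1646 control probe sets were left out. Of the 23188 clusters, 15049 carry 1 gene symbol by the platform annotation, 0 several and 8139 none, and for a symbol with several clusters the one of highest mean signal was used.

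Groups, taken from the labels, were compared in 1 model of 4 group means (limma 3.58.1, R 4.3.3) over all 16 arrays with two-sided p-values and Benjamini-Hochberg adjustment over all clusters. The methods' parametric t-test, adjusted and unadjusted, was an alternative, and simulated data with known changes were used to check the model. Gene lists (36 pathway, 12 marker) were described by counts and medians and not tested. Named genes were the 12 highest and 12 lowest changes with separated groups, list members, the 8 highest and lowest differences from V12 and S-V12, and genes the paper names, a selection made with values in view. The members, lists and rules were chosen with earlier results of these data known. CON replicate 1 and V12 replicate 1 left out together was an alternative added after seeing the data. With 4 arrays in a group, their number sets the precision that can be reached.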

Additional observations from a re-analysis of the deposited data

Results flagged for a closer look

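In each gene printed here, the CON and E-V12 groups were examined for an array far from the other 3 (Dixon's gap ratio for 4 samples). Of 422 groups 20 were picked out (4.74%), where chance alone gives about 1 in 20. CON replicates 1 and 4 accounted for 7 each.

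CON replicate 1 was the highest CON array for Zfp36 (8.31), Trim55 (11.45), Lifr (12.89), Per1 (11.87), Usp2 (13.60) and Scn4a (14.51), and the lowest for Uqcr10 (15.05). CON replicate 4 was the highest for Ankrd1 (10.40), Egr1 (9.98) and Chrna1 (9.30), and the lowest for Ppargc1a (12.30), Fkbp5 (8.74), Adamts1 (7.48) and Bcl6 (9.94). Among the E-V12 arrays, replicate 2 was the highest for Il6r (11.91) and the lowest for Il6 (4.73), where all arrays lay below background. Replicate 3 was the lowest for Ccnd3 (9.78), and replicate 4 the lowest for Gadd45a (16.39), Ppp1r3a (11.66) and Mrpl40 (8.0).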

How the results depend on the processing

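Of 208 printed genes called in E-V12/CON, 189 kept the call under every alternative that tested them, and 0 changed direction. Genes removed by a signal filter were not tested there. Tukey's biweight changed only the averages, not the p-values, so no call could end with it. All 19 that lost it did so with the methods' t-test and adjusted p, 4 of them also without 1 array. Of 104 called against V12 57 lost the call somewhere, and of 18 called against S-V12 10 did. Ndufa2, not called against CON (-0.01), had the other sign without CON replicate 2, 3 or 4 or E-V12 replicate 3 or 4 (-0.45 to 0.19 over all arrays left out in turn).

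In E-V12/CON, the 2524 clusters higher became 1320 with a fold of 2 added and 1280 with the unadjusted t-test and that fold, and the 2924 lower became 1440 and 1415, or 1838 with the adjusted t-test. With 1 array left out, the counts ran from 2216 to 2557 higher and 2451 to 2934 lower, at the study's thresholds from 1307 to 1427 and 1408 to 1567, and the pathway list calls (312 higher, 235 lower) from 285 to 314 and 201 to 254. Against V12, 1101 higher and 883 lower became 503 and 379 with the adjusted t-test and 514 and 352 with a fold of 2, and 772 to 1254 and 553 to 1076 with 1 array left out. Against S-V12, 277 higher and 351 lower became 670 and 871 with array weights, 512 and 681 with clusters above background only, 550 and 719 without CON replicate 1 and V12 replicate 1, 149 and 170 with a fold of 2, 158 higher with 1 cluster per symbol, and 45 to 526 and 29 to 656 with 1 array left out, both lowest without E-V12 replicate 3 and highest without CON replicate 1. With the adjusted t-test, the counts higher and lower fell to 3 and 5 for PGC-1 and mitochondrial biogenesis and to 5 and 5 for insulin signalling, the counts higher to 10 for glucocorticoid, 4 for hypoxia, 4 for cyclic nucleotide and 3 for neuromuscular junction genes, and the counts lower to 3 for atrophy, 3 for autophagy, 3 for ubiquitin, 2 for amino acid transport, 1 for immediate early and 0 for clock genes. The causes were not tested.

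The groups share replicate numbers, but same-numbered CON and E-V12 arrays did not deviate together (r = 0.07, -0.08, 0.06 and 0.02 across clusters), so the numbers do not pair the samples. With the replicate number as a block, 2479 clusters were higher and 2844 lower than in CON, 1082 and 842 than in V12, and 283 and 390 than in S-V12.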

Other observations

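Of the 8139 transcript clusters without a gene symbol, 707 were higher and 777 lower in E-V12 than in CON. The highest change of all clusters belonged to one of them, TC1700001024.rn.2, which read 4.47, 4.48, 5.33 and 4.32 in CON, below background, and 19.08, 19.13, 19.28 and 18.74 in E-V12. Another, TC2000000120.rn.2, read 7.64, 8.25, 8.20 and 7.24 in CON and stood at the ceiling of 19.93 on all 4 E-V12 arrays. The genes that both measure are not named in the annotation used here. The lowest of them, TC0800001414.rn.2 and TC0200002273.rn.2, changed by -5.48 ± 0.43 and -5.47 ± 0.47 (SE), with limma adjusted p of 1.5e-09 and 8.19e-09.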
